A study of Mus musculus with 6 samples.

Results

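Costimulatory and checkpoint ligand genes of macrophages are described here as a set of 6, Cd40, Cd80, Cd86, Cd83, Cd274 and Icosl, chosen by gene name from the 34745 genes of the deposited expression table. All 6 were found and all 6 passed the expression filter. They were measured by RNA sequencing in RAW 264.7 cells, a mouse macrophage line that grows continuously in culture, in a series on how the bisphenol A analogue bisphenol AP (BPAP) changes macrophages in lung fibrosis. One group was treated with BPAP and the other with the solvent DMSO, with 3 libraries each. The sources used here give neither the dose nor the time of exposure, and the cells are of 1 line. Whether the replicates were separate cultures is not stated in the labels. The p-values therefore reflect only how far these libraries differ from each other, and that spread may be technical.

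A macrophage that shows antigen to a T cell also shows surface ligands that set how the T cell answers. CD80 and CD86, the B7 proteins, bind CD28, which promotes T cell activation, and CTLA-4, which restrains it. The ICOS ligand, encoded by Icosl, is a relative of the B7 proteins and binds ICOS on activated T cells. CD40 is a receptor on the macrophage that is engaged by CD40 ligand on T cells and signals through TRAF adaptors to NF-kB. CD83 is a membrane protein of activated antigen-presenting cells that keeps MHC class II and CD86 on the surface, and Cd274 encodes PD-L1, the checkpoint ligand that inhibits T cells through PD-1.

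Library totals ranged from 12056332 to 12427563 counts in BPAP and from 11084705 to 13806559 in DMSO. One library of each group stood apart from its replicates: the chi-square per degree of freedom between the counts of 2 libraries was 17.3 and 18.2 for the BPAP pairs that include BPAP 2, against 8.31 for the other, and 19 and 20 for the DMSO pairs that include DMSO 1, against 6.64. For the 6 genes, the gene lists below and the genes named from them by lowest p-value, each library was also left out in turn. Calls lost in those fits are named. The markers of this paragraph and the other named genes have values from all libraries only. Of 12 macrophage markers 11 were tested, 5 of them higher and 3 lower in BPAP, and Mertk had 0 counts. Of all tested genes 31.7% were called in either direction, at an edgeR adjusted p under 0.05. After a correction for exon length and GC content, described below, Fcgr1 and Cd14 were still higher (edgeR adjusted p = 0.00135 and 0.0279). Csf1r and Cx3cr1 were still lower (0.00985 and 0.000738). Adgre1, Lyz2, Spi1 and Ptprc no longer passed (0.089, 0.855, 0.233 and 0.677). Macrophage markers summed to 5100 to 5510 CPM (counts scaled to library size after TMM normalisation) in BPAP and 4590 to 5210 CPM in DMSO. The B cell markers summed to 0.0814 to 0.41 CPM in BPAP and 0.0782 to 0.459 CPM in DMSO, and the T cell markers to 0 to 0.244 CPM in BPAP and 0.275 to 0.469 CPM in DMSO. Of 11 dendritic cell markers 9 did not pass the expression filter, with Flt3, Ccr7 and Cd209a at 0 counts in every library. The 11 markers summed to 8.49 to 11.6 CPM in BPAP and 13.5 to 14 CPM in DMSO, without overlap, and most of that sum was Itgax. Itgax, 1 of the 2 tested, was lower in BPAP (8.57 ± 1.52 CPM in BPAP and 12.2 ± 1.31 CPM in DMSO, SD, n = 3 each, edgeR adjusted p = 0.042). Its lowest BPAP value was in BPAP 2 and its highest DMSO value in DMSO 1. The other, Zbtb46, did not pass (0.932 ± 0.135 CPM in BPAP and 1.09 ± 0.625 CPM in DMSO, edgeR adjusted p = 0.685). The part of these markers in the results on the 6 genes was not tested.

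In BPAP-treated cells Cd83, Cd86 and Cd40 were higher than in DMSO-treated cells, by 1.67-fold, 1.69-fold and 1.37-fold, while Cd80, Cd274 and Icosl did not pass an adjusted p of 0.05. They were tested with edgeR's quasi-likelihood test, with p-values adjusted by Benjamini-Hochberg over the 11711 genes that passed the filter. Among these, 31.7% passed that threshold in either direction, with 16.2% of all tested genes higher and 15.5% lower in BPAP. Against that background 3 of the 6 genes were higher and 0 were lower, with a median log2 fold change of 0.34 over the 6 and of 0.02 over all tested genes. The genes were chosen with earlier results of these data known, so their share is given without a test. The CPM of the groups were separate, with no overlap, in the same 3 genes. Of all tested genes 49.0% had no overlap in either direction, and 25.2% had none with BPAP above. In bulk RNA, a change in the number of cells that express a gene and a change in the RNA per cell cannot be told apart.

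**Figure D1:**
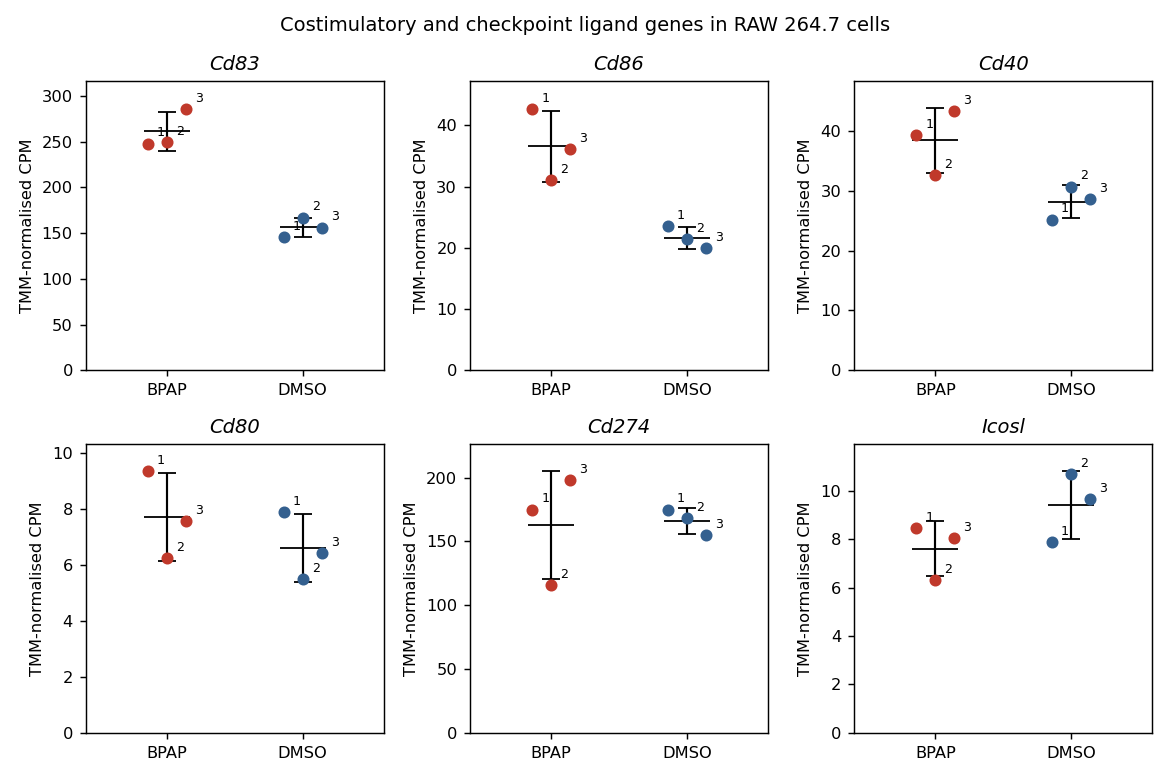
TMM-normalised CPM of the 6 genes in each library, BPAP left and DMSO right in every panel; numbers mark the replicate, horizontal bars the mean and whiskers the SD (n = 3). The groups are separate for Cd83, Cd86 and Cd40 and overlap for Cd80, Cd274 and Icosl, and BPAP 2 is the lowest BPAP library in every panel but that of Cd83.

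Cd86, on chromosome 16 at 36603869 to 36666081 on the minus strand (GRCm38), encodes the B7 protein that resting antigen-presenting cells already carry. It had 42.6, 31.0 and 36.1 CPM in BPAP 1 to 3, against 23.5, 21.4 and 19.9 CPM in DMSO 1 to 3. Every BPAP library was above every DMSO library, and the spread within BPAP was wider than within DMSO. The means were 36.5 ± 5.81 CPM in BPAP and 21.6 ± 1.82 CPM in DMSO (SD, n = 3 each), a log2 fold change of 0.76 (SE 0.14, 95% interval 0.46 to 1.06, edgeR adjusted p = 0.0032). Only 3.61% of all tested genes had a larger log2 fold change. Across the fits that left out 1 library the log2 fold change was 0.64 to 0.87, and the call was kept in all 6 (adjusted p 0.00122 to 0.0165).

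Cd80 encodes the B7 protein that is usually induced on activation, and lies on the same chromosome at 38458933 to 38486933, plus strand. Its levels were 9.36, 6.24 and 7.55 CPM in BPAP, against 7.89, 5.48 and 6.41 CPM in DMSO. The groups overlapped, with the highest DMSO library above the 2 lower BPAP libraries. The log2 fold change was 0.23 (SE 0.2, 95% interval -0.22 to 0.68, edgeR adjusted p = 0.406), an interval that reaches from 0.861 to 1.6 times the DMSO level. Only 75 to 115 counts per BPAP library and 70 to 91 per DMSO library lie behind these values. The 75 counts of BPAP 2 alone have an exact Poisson 95% interval of 59 to 94, which covers counting error only. A difference from DMSO of the size seen for Cd86 lies just outside the interval for Cd80, and one of the size seen for Cd40 lies inside it.

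Icosl (chromosome 10, 78069360 to 78079525, plus strand) had, like Cd80, few counts, 76 to 104 per library in BPAP and 86 to 137 in DMSO. It had 8.46, 6.32 and 8.04 CPM in BPAP, against 7.89, 10.7 and 9.65 CPM in DMSO. The BPAP libraries were below DMSO 2 and DMSO 3, and DMSO 1 lay among them. The log2 fold change was -0.31 (SE 0.18, 95% interval -0.7 to 0.08, edgeR adjusted p = 0.202). Without DMSO 1 it was -0.44 and still did not pass (adjusted p = 0.11).

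Cd40 is on chromosome 2 at 165055627 to 165072948, plus strand. Its levels were 39.3, 32.7 and 43.4 CPM in BPAP, against 25.2, 30.7 and 28.6 CPM in DMSO. The groups were separate, but BPAP 2 and DMSO 2 differed by little. The means were 38.5 ± 5.39 CPM in BPAP and 28.1 ± 2.79 CPM in DMSO (SD, n = 3 each), and the log2 fold change was 0.45 (SE 0.13, 95% interval 0.16 to 0.74, edgeR adjusted p = 0.0246). This call was lost without BPAP 1 (adjusted p = 0.0607), BPAP 3 (0.0824), DMSO 1 (0.0926) or DMSO 3 (0.0626). Without BPAP 2, the lowest of its group, the log2 fold change was 0.55 (adjusted p = 0.007).

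Cd83, on chromosome 13 at 43785107 to 43803130 on the plus strand, had the smallest standard error of the 6 genes. It had 248, 250 and 286 CPM in BPAP, against 146, 167 and 156 CPM in DMSO. All 3 BPAP libraries stood well above the DMSO libraries, and BPAP 2 did not stand apart for this gene. The means were 261 ± 21.8 CPM in BPAP and 156 ± 10.6 CPM in DMSO (SD, n = 3 each), a log2 fold change of 0.74 (SE 0.09, 95% interval 0.54 to 0.95, edgeR adjusted p = 0.000783). With 1 library left out the log2 fold change was 0.67 to 0.79.

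Cd274 (chromosome 19, 29367455 to 29388095, plus strand) was well expressed and had the widest spread in BPAP. Its levels were 175, 116 and 198 CPM in BPAP, against 175, 168 and 155 CPM in DMSO. BPAP 2 was below all DMSO libraries, BPAP 3 was above all of them and BPAP 1 level with the highest. The means were 163 ± 42.2 CPM in BPAP and 166 ± 9.94 CPM in DMSO (SD, n = 3 each), with a log2 fold change of -0.03 (SE 0.18, 95% interval -0.43 to 0.37, edgeR adjusted p = 0.913). At 1390 to 2408 counts per BPAP library and 1903 to 2202 per DMSO library, counting error is a small part of that spread. Without BPAP 2 the log2 fold change was 0.17 (adjusted p = 0.182), and without BPAP 3 it was -0.19 (adjusted p = 0.405), so the sign rests on 1 library. An antisense transcript, AC119228.1, overlaps exons of Cd274 on the opposite strand in the annotation, and its part in the counts was not tested.

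Of the 6 genes, 3 matched the RefSeq promoter table (GRCm38.p6): Cd80, Cd274 and Icosl, the ligands that did not pass. Their 250 bases before the start are shown so that the sites known for such genes can be looked for, at chr16:38458683-38458932, chr19:29367188-29367437 and chr10:78069118-78069367, all on the plus strand. Capitals mark matches, on either strand, to the kappaB consensus of NF-kB, to the interferon-stimulated response element motif, to the AP-1 motif TGANTCA, to the PU.1 core GAGGAA and to the ATF4 composite motif TGATGNAA.
Cd80: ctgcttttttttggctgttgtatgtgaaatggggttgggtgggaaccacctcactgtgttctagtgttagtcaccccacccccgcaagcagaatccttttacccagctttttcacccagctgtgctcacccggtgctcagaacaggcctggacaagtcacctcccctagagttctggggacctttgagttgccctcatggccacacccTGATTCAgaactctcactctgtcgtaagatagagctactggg
Cd274: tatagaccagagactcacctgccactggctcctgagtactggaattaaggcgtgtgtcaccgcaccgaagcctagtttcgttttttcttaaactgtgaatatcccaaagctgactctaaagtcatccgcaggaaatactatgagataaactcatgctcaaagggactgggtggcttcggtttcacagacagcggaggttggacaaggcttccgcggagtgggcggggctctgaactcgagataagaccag
Icosl: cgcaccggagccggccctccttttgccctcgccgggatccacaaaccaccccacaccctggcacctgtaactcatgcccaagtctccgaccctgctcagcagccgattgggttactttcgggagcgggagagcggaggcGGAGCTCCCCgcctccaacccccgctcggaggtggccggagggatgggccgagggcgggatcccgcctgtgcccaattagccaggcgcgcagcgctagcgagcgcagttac
Cd80 had 1 match, to AP-1, beginning 42 bases before the start. Icosl had 1 match, to kappaB on the minus strand, 111 bases before the start, and Cd274 had 0. Windows of the same length hold the AP-1 motif in 6.75%, the kappaB consensus in 7.25%, the interferon-stimulated response element in 2.98%, the PU.1 core in 23.3% and the ATF4 motif in 3.45% of 32851 RefSeq promoters. A match is a string of letters and no evidence of binding.

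Log2 fold changes in these libraries fell with gene length, with a Spearman correlation across genes of -0.4 with the merged exon length. Genes are not independent replicates. Merged exons hold 2572 bases in Cd83, 3406 in Cd40, 3661 in Cd86, 3622 in Cd274, 3703 in Cd80 and 4620 in Icosl, while the tested genes as a whole had a median of 4298. After the trend of each library with exon length and GC content was taken out (the length and GC correction), the log2 fold change of Cd86 was 0.72 (edgeR adjusted p = 0.00511) and that of Cd83 was 0.55 (adjusted p = 0.00356). In the same fit 1375 of 11665 tested genes passed as higher and 1301 as lower. Cd40 no longer passed in that fit, at 0.31 (adjusted p = 0.103), but it passed when the trend with the FPKM length was taken out instead, at 0.44 (adjusted p = 0.0311). The other 3 genes again did not pass, at 0.21 for Cd80, -0.09 for Cd274 and -0.36 for Icosl.

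**Figure D2:**
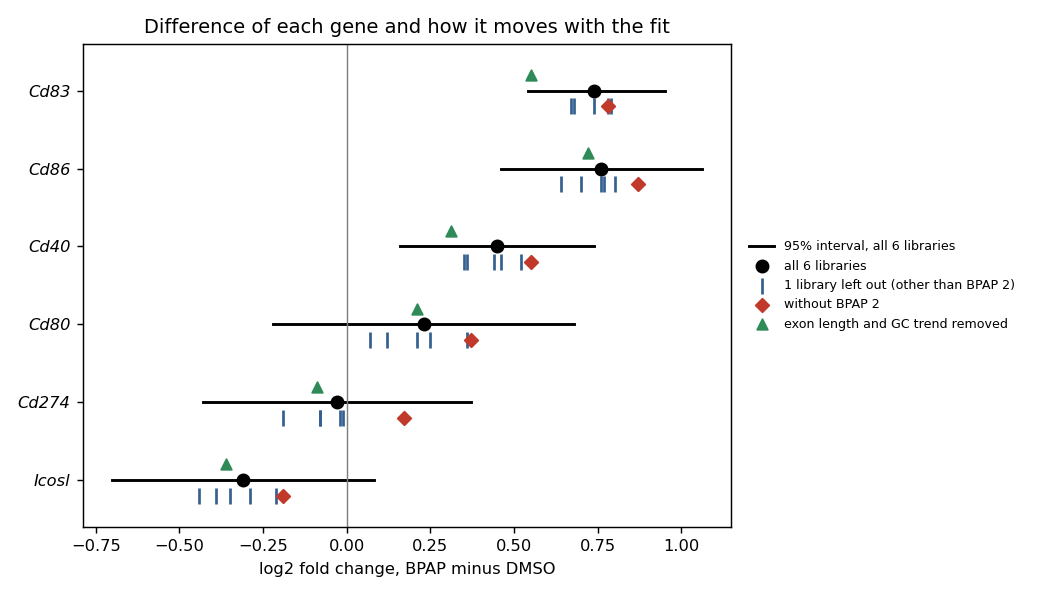
Log2 fold change of each gene, BPAP minus DMSO: black points and lines are the fit on all 6 libraries with its 95% interval, blue ticks and red diamonds the fits without 1 library, and green triangles the fit after the length and GC correction. Every value for Cd83, Cd86 and Cd40 lies above 0, every value for Icosl lies below 0, and for Cd274 the value without BPAP 2 lies at 0.17, above 0, while the others lie below it.

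Between genes, levels can be compared only per length, here in the deposited FPKM (fragments per kilobase of transcript, scaled to library size). In BPAP the order was Cd83 at 121 ± 9.23, Cd274 at 44.3 ± 11.2, Cd86 at 7.74 ± 1.21, Cd40 at 6.87 ± 0.912, Cd80 at 4.48 ± 0.899 and Icosl at 2.73 ± 0.392 FPKM (SD, n = 3). In DMSO it was Cd83 at 73.6 ± 6.3, Cd274 at 46.2 ± 1.89, Cd40 at 5.14 ± 0.608, Cd86 at 4.67 ± 0.286, Cd80 at 3.9 ± 0.642 and Icosl at 3.46 ± 0.586 FPKM (SD, n = 3). On this scale Cd86 and Cd40 exchanged places between the groups, but their values overlapped in both. In DMSO the FPKM of Cd86 also overlapped with that of Cd80, and Cd80 with Icosl, while in BPAP these pairs were separate. The order below Cd274 depends on the length used. Counted per merged exon kilobase, Cd40 was above Cd86 in both groups, at 11.3 ± 1.58 against 9.98 ± 1.59 CPM per kilobase in BPAP, where they overlapped, and at 8.26 ± 0.818 against 5.9 ± 0.498 in DMSO, where they did not. For the last places, the FPKM length of Cd80 is 1701 bases and that of Icosl 2756. Per merged exon kilobase Cd80 was at 1.78 ± 0.329 and Icosl at 2.04 ± 0.309 CPM per kilobase in DMSO, and the pair overlapped in BPAP too. Cd86 and Cd80 did not overlap on that scale in DMSO, at 5.43 to 6.42 against 1.48 to 2.13 CPM per kilobase. The FPKM length of Cd86 is 4666 bases.

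**Figure D3:**
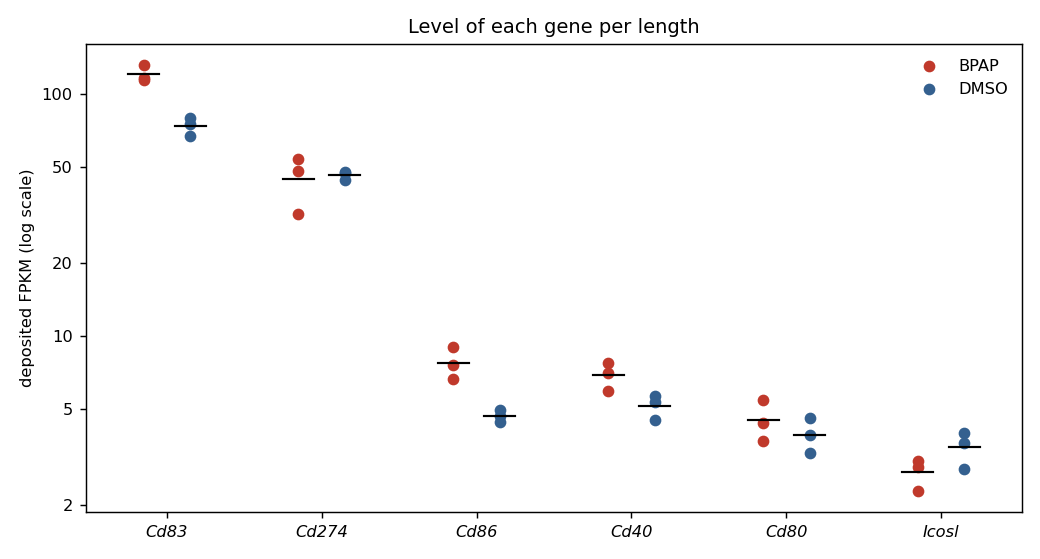
Deposited FPKM of the 6 genes on a log axis, BPAP left and DMSO right of each gene's position; points are libraries and bars the mean (n = 3). Cd83 and Cd274 lie far above the others in both groups, and the BPAP and DMSO points of Cd274 overlap.

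Set against Cd274 within each library, Cd86, Cd83 and Cd40 had higher FPKM ratios in every BPAP library than in any DMSO library. The FPKM of Cd86 was 0.189, 0.208 and 0.142 times that of Cd274 in BPAP, against 0.104, 0.0991 and 0.0994 times in DMSO. For Cd83 the ratio to Cd274 was 2.4, 3.65 and 2.45 in BPAP, against 1.41, 1.68 and 1.7 in DMSO. Cd40 stood at 0.147, 0.185 and 0.144 times Cd274 in BPAP, against 0.0943, 0.12 and 0.121 times in DMSO. These 3 ratios were separate between the groups, also in BPAP 1 and BPAP 3, and in each of them BPAP 2 was highest, the library where Cd274 was low. Cd80 and Icosl overlapped, at 0.0814 to 0.115 and 0.0535 to 0.0719 times Cd274 in BPAP and 0.0695 to 0.0962 and 0.0594 to 0.0839 times in DMSO. Between the B7 genes, the FPKM of Cd86 was 1.66, 1.81 and 1.74 times that of Cd80 in BPAP, against 1.09, 1.43 and 1.13 times in DMSO. The size of this ratio depends on the length used. Per merged exon kilobase the means of Cd86 and Cd80 were 9.98 and 2.08 CPM per kilobase in BPAP, and 5.9 and 1.78 in DMSO. The ratios of this paragraph were chosen after the values were seen and carry no test, since 3 libraries against 3 cannot give a 2-sided exact permutation p under 0.1.

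**Figure D4:**
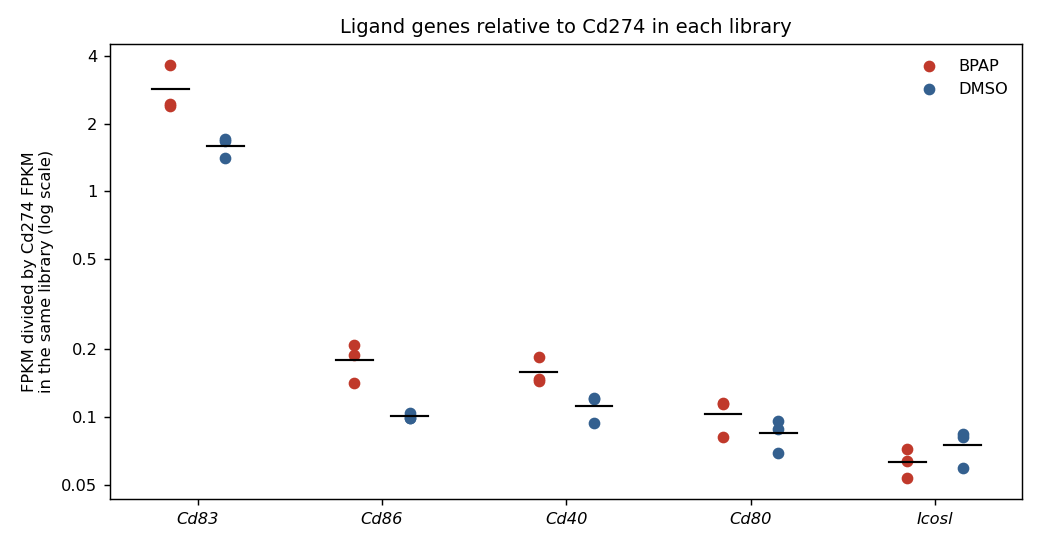
FPKM of each gene divided by that of Cd274 in the same library, on a log axis, BPAP left and DMSO right of each position; points are libraries and bars the mean (n = 3). The BPAP and DMSO points of Cd83, Cd86 and Cd40 do not overlap, and those of Cd80 and Icosl do.

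Over the 6 libraries Cd83 varied most like Cd40 among the set (Pearson r of log2 CPM 0.92) and Cd86 most like Cd83 (0.88). Cd274 was nearest to Icosl (0.51), and Cd274 stood at -0.03 with Cd83. All of these share the same 6 libraries, in which 3 differ from the other 3 by treatment, so they are a description. Among 8768 genes with a mean of at least 100 counts, the 3 most like Cd86 were Galnt3 (0.998), Dusp5 (0.995) and Tnf (0.994), and those most like Cd83 were Ndufs4 (0.997), Surf1 (0.997) and Angel1 (0.996). For Cd40 they were Aaed1 (0.995), Pecr (0.986) and Pank2 (0.984). Cd274 came with Xrcc4 (0.986), Nmrk1 (0.98) and Pax6 (0.978), Cd80 with Mettl2 (0.992), Btf3l4 (0.99) and Ankra2 (0.985), and Icosl with Parp2 (0.994), Txndc16 (0.986) and Tube1 (0.981). A correlation of at least 0.95 was reached by 412 of the 8768 genes for Cd83, 97 for Cd86 and 77 for Cd40, but by 28 for Icosl, 17 for Cd274 and 9 for Cd80. The 3 named per gene are the highest of 8768 values over only 6 libraries, so they are high by selection and carry no test. How many genes would reach 0.95 without any link was not tested.

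Among 27 other costimulatory and coinhibitory ligands of antigen-presenting cells 13 were tested, of which 3 rose and 1 fell. Their median log2 fold change was -0.05. Of all tested genes 31.7% were called, 16.2% higher and 15.5% lower, with a median of 0.02. These all-gene values are the background for the count and median of each list below as well. Cd276, which encodes the B7 relative B7-H3, had 40.1, 52.2 and 33.7 CPM in BPAP, against 28.2, 22.1 and 21.8 CPM in DMSO, and rose 1.75-fold (log2 fold change 0.81, SE 0.17, edgeR adjusted p = 0.00677). Tnfsf9, the gene of 4-1BB ligand, had 46.5, 59.3 and 39.3 CPM in BPAP, against 31.6, 32.9 and 26.6 CPM in DMSO, and rose 1.59-fold (adjusted p = 0.00951). Both were highest in BPAP 2, where 5 of the 6 genes above were lowest in their group. After the length and GC correction Cd276 passed (adjusted p = 0.0125) and Tnfsf9 did not (0.14), and Tnfsf9 shares exons with Gm11110 on the opposite strand, so its counts are uncertain. The third gene that rose was Cd48, named here because the count is small, at 10.9 ± 0.795 CPM in BPAP and 6.55 ± 1.23 CPM in DMSO (SD, n = 3 each). After the length and GC correction it did not pass either, so that 1 gene of this list was higher and 2 were lower. Hmgb1 fell 1.48-fold (edgeR adjusted p = 0.0171), a call lost without DMSO 2 (0.0663) or DMSO 3 (0.0511), and it shares exons with Uspl1. Pdcd1lg2, which lies on the same chromosome as Cd274 and encodes PD-L2, had 3, 0 and 0 counts in BPAP and 5, 6 and 6 in DMSO, too few for the test.

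The 20 genes of CD40 signalling were all tested: 7 fell and 1 rose, and the median log2 fold change was -0.2. Of all tested genes 15.5% were lower and 16.2% higher, with a median of 0.02. Traf1, an adaptor gene that NF-kB induces, had 13.3, 14.9 and 9.76 CPM in BPAP, against 8.26, 8.76 and 5.35 CPM in DMSO, 1.71-fold higher (edgeR adjusted p = 0.0234). Rel, the gene of the NF-kB subunit c-Rel, fell to 89.2 ± 8.7 CPM in BPAP, against 152 ± 16.4 CPM in DMSO (SD, n = 3 each; log2 fold change -0.77, edgeR adjusted p = 0.00126). Nfkbia, the gene of the inhibitor IkB-alpha, fell to 99.8 ± 3.93 CPM in BPAP, against 139 ± 8.79 CPM in DMSO (SD, n = 3 each; log2 fold change -0.47, edgeR adjusted p = 0.00371). The adaptor genes Traf2, Traf3 and Traf6 did not pass, at log2 fold changes of 0.31, -0.2 and 0.01. The call of Traf1 was lost without BPAP 1 (adjusted p = 0.0582), BPAP 2 (0.0665), DMSO 1 (0.0532) or DMSO 3 (0.077). Without DMSO 2, and after the length and GC correction, 3 genes fell in place of 7, and without BPAP 1, BPAP 2, DMSO 1 or DMSO 3, 5 fell and 0 rose. The median of the list was -0.06 after the length and GC correction, and also -0.06 with the FPKM length trend taken out.

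The interferon-gamma pathway, whose factor IRF1 is known to induce Cd274, had 15 of 16 listed genes tested, with 1 higher, 1 lower and a median log2 fold change of -0.09. Ifngr2, a chain of the interferon-gamma receptor, rose 1.25-fold (95.2 ± 5.78 CPM in BPAP and 76 ± 4.1 CPM in DMSO, SD, n = 3 each, edgeR adjusted p = 0.0218). The kinase gene Jak2 fell 1.3-fold (69.6 ± 12.7 CPM in BPAP and 90.5 ± 2.3 CPM in DMSO, edgeR adjusted p = 0.044). Irf1 did not pass, at a log2 fold change of -0.27. The call of Ifngr2 was lost without BPAP 1 (adjusted p = 0.0838) or DMSO 2 (0.0965), that of Jak2 without BPAP 2 (0.0544), DMSO 1 (0.079), DMSO 2 (0.0942) or DMSO 3 (0.116), and both after the length and GC correction (0.109 and 0.0546).

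Of 9 tested genes of the surface turnover of CD86, CD80 and PD-L1, 1 rose and 0 fell. The median log2 fold change was 0.11. March1, whose product removes CD86 and MHC class II from the surface, had 1 count in the 6 libraries, and Cmtm6, which keeps PD-L1 on the surface, did not pass at 0.09. March8, also on the list, had 110, 42.9 and 36.7 CPM in BPAP, against 24.7, 39.0 and 22.4 CPM in DMSO. Its groups overlapped, BPAP 1 stood apart, and it did not pass at 1.14 (edgeR adjusted p = 0.177). The gene that rose, Trappc4 (1.63-fold, edgeR adjusted p = 0.0035), shares exons with the far more highly counted Rps25 on the opposite strand, so its counts are uncertain.

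MHC class II genes, which carry the antigen that costimulation accompanies, had 9 of 12 tested, 1 higher and 0 lower, with a median log2 fold change of 0.2. Cd74, the invariant chain gene, had 863, 764 and 757 CPM in BPAP, against 727, 622 and 569 CPM in DMSO (edgeR adjusted p = 0.0456). That call was lost without BPAP 1 (0.144), BPAP 3 (0.0626), DMSO 2 (0.131) or DMSO 3 (0.165), and after the length and GC correction it stood at 0.03 on the log2 scale (adjusted p = 0.851). In that fit 0 genes of this list were higher and 1 was lower, and the median was -0.09. The class II chains themselves were low, with H2-Ab1 at 6 ± 0.37 CPM in BPAP and 4.17 ± 0.919 CPM in DMSO (SD, n = 3 each), and their transactivator gene Ciita had at most 4 counts in a library.

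Receptors of the ligands, which belong mostly to T cells, and T cell genes were largely silent, with 5 of 18 tested, 1 higher and 0 lower and a median log2 fold change of -0.09. The gene that rose was Lck, at 7.87 ± 1.26 CPM in BPAP and 4.84 ± 0.59 CPM in DMSO (SD, n = 3 each, edgeR adjusted p = 0.0171), a call lost without DMSO 1 (0.0642) or DMSO 3 (0.0559). Cd40lg, Cd3e and Cd8a had 0 counts in every library. Tnfrsf9, the receptor of 4-1BB ligand, was the best expressed at 174 ± 20.9 CPM in BPAP and 215 ± 34.7 CPM in DMSO and did not pass (edgeR adjusted p = 0.101).

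In the PI3K arm below CD80 and CD86, 2 of 10 genes fell and 0 rose, and the median log2 fold change was -0.05. Plcg2, a phospholipase gene, fell to 176 ± 2.74 CPM in BPAP, against 238 ± 25.3 CPM in DMSO (SD, n = 3 each, log2 fold change -0.44, edgeR adjusted p = 0.00713). Pik3r1, the gene of a PI3K regulatory subunit, fell to 38.2 ± 1.94 CPM in BPAP, against 47.6 ± 0.691 CPM in DMSO (edgeR adjusted p = 0.0267). Pik3r1 lost its call without BPAP 1 (0.0519), BPAP 3 (0.055), DMSO 2 (0.0758) or DMSO 3 (0.0805) and after the length and GC correction (0.266). With the FPKM length trend taken out, 2 genes of this list were higher and 1 was lower.

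**Figure D5:**
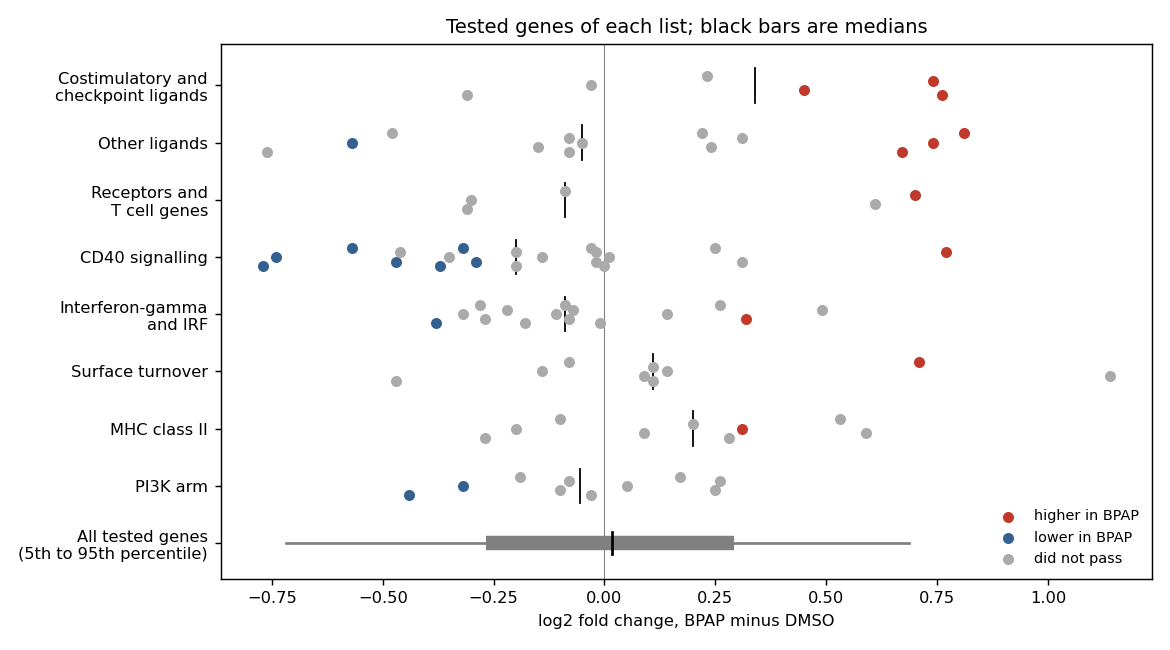
Log2 fold changes, BPAP minus DMSO, of the tested genes of each list; red points passed as higher in BPAP, blue as lower and grey did not pass, black bars are medians, and the bottom row gives all 11711 tested genes (thick bar 25th to 75th percentile). In this fit, without a length correction, the median is 0.34 in the top row and -0.2 for CD40 signalling, the lowest of the lists. After the length and GC correction these medians were 0.26 and -0.06, and the lowest was that of the receptors at -0.21.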

How the data were processed

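RNA sequencing counts of 6 RAW 264.7 libraries were analysed, 3 treated with BPAP and 3 with DMSO, grouped by the treatment label. The authors deposited 1 table with raw counts and FPKM values per gene and library. Per the submitters' processing notes, HISAT2 2.0.4, StringTie 1.3.3b and edgeR were used on GRCm38, but their roles and order are not stated. The sources used here do not give the annotation release, the strand setting, any poly(A) selection or the handling of multi-mapping reads. RNA was isolated with TRIzol and sequenced from VAHTS Universal V6 libraries, per the labels' protocols. The deposited FPKM values follow from the same counts.

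The default filter of edgeR 4.0.16 (R 4.3.3) left 11711 of 34745 genes. Libraries were scaled by TMM, and the quasi-likelihood test with robust dispersions compared BPAP with DMSO, 2-sided, with Benjamini-Hochberg adjustment over all tested genes and a threshold of 0.05. Standard errors are the log2 fold change divided by the root of F. The common biological coefficient of variation was 0.127. A limit of 3 counts corresponds to 0.217 to 0.271 CPM, which covers counting error only. The fits were tested on simulated data. Merged exon length, GC content and overlaps came from GENCODE M21, and promoters from RefSeq.

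The 6 genes, the lists and the tests were chosen with earlier results of these data known. Beside the 6, the text names up to 2 higher and 2 lower genes of each list, those that passed with the lowest p-values, and per gene the 3 whose log2 CPM (prior count 2) correlated best; other genes were named after their values were seen.

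Alternatives were DESeq2 size factors, upper quartile scaling, no filter, DESeq2 1.42.0, limma-voom (limma 3.58.1), limma-trend on the deposited FPKM as log2(FPKM + 1), where the mean FPKM reached 1, a block for the replicate number, each library left out, and an offset for each library's lowess trend (span 0.3) with exon length and GC content, or with the FPKM length. The values of 1 listed gene and 1 motif are not reported here.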

Additional observations from a re-analysis of the deposited data

How the results depend on the processing

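Cd83 and Cd86 kept their direction and passed the threshold in all 15 alternatives. Cd80 and Icosl kept their direction and did not pass in any of them. Cd40 lost its call after the correction for exon length and GC content (0.31), and also without BPAP 1, BPAP 3, DMSO 1 or DMSO 3. It ranged from 0.35 to 0.55 on the log2 scale over the fits without 1 library (edgeR adjusted p 0.007 to 0.0926). Cd274 ranged from -0.19 to 0.17 there, with 0.17 without BPAP 2. Among the alternatives, DESeq2, limma-voom and limma-trend each called the same 3 of the 6 genes. Genes called higher over the whole table numbered 1901, and 1244 to 1654 without 1 library, the lowest without DMSO 1. After the length and GC correction 1375 of 11665 tested genes were higher and 1301 lower, against 1901 and 1814 of 11711 without it. With the FPKM length trend removed 1418 were higher and 1415 lower.

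Counts of list genes called in either direction moved as follows. Leaving out 1 library gave 4 to 7 for CD40 signalling (8 with all libraries), 0 to 3 for the interferon-gamma list (2), 0 to 2 for MHC class II (1), 0 to 2 for the receptors (1) and 1 to 3 for the PI3K arm (2). DESeq2 size factors gave 0 for MHC class II and upper quartile scaling 1 for the interferon-gamma list. After the exon length and GC correction, CD40 signalling had 4, the interferon-gamma list 0, the receptors 2, surface turnover 2 and the PI3K arm 1. It left MHC class II with 0 higher and 1 lower, against 1 higher and 0 lower without it, and the other ligands with 1 higher and 2 lower, against 3 higher and 1 lower. With the FPKM length trend removed, CD40 signalling had 4, the PI3K arm had 2 higher and 1 lower, MHC class II 0 higher and 1 lower, and the interferon-gamma list 0 higher and 2 lower. Of the genes named by the rule, Tnfsf9, Ifngr2, Cd74 and Pik3r1 did not pass under either length correction (adjusted p 0.0814 to 0.851). The cause of these shifts was not tested.

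Deviations of same-numbered libraries from their group means correlated at 0.101, 0.054 and 0.01, and those of the other pairs at -0.086 to 0.045. Each BPAP library was closest to the DMSO library of its number, for BPAP 3 at 0.01 against 0.009. DMSO 3, however, was closer to BPAP 2 (0.045), so the numbers were not taken as pairs. With the replicate number as a block, 2149 genes were higher and 2087 lower, the same 3 of the 6 genes were called and 2 receptor genes were called. Of the 6 genes, Cd80 and Icosl had the fewest counts, at most 115 and 137 per library, which limits their precision by counting error.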
